A study of Drosophila melanogaster with 76 samples.

Results

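Mitochondrial ribosomal protein genes are nuclear genes for the proteins of the ribosome inside mitochondria, and 73 of them were followed here across 31 lists of chromatin immunoprecipitation and sequencing (ChIP-seq) peaks. The members are all protein-coding genes of the dm6 assembly whose symbol starts with mRpL or mRpS and a number, 73 of 13922 protein-coding genes on 6 chromosome arms. By symbol 47 belong to the large subunit and 26 to the small subunit. In each list a member counts as having a summit, the highest point of an enriched region, where 1 lies in the span of the gene or within 500 bp of it. The same rule was applied to all 13922 genes, and their share is the background given with the counts per list.

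The libraries came from Drosophila melanogaster S2 cells, a cultured line of embryonic origin. Lines carried constructs that express a transcription factor after copper sulfate is added. The constructs were Zld, Zld-DBD, Grh, Grh-DBD, Twi and HA-Twi, where DBD is read as the DNA-binding domain, and HA-Twi carries an HA tag. Zld was taken at 0, 500, 1000 and 1500 µM copper sulfate with an anti-Zld antibody, and Zld-DBD at 100 and 400 µM with the same antibody. Grh was taken at 0, 25, 100 and 400 µM and Grh-DBD at 20 and 80 µM, with anti-Grh. Twi was taken at 40 µM with anti-Twi, and HA-Twi at 0, 10, 40 and 160 µM with anti-HA. Zld at 1000 µM, Grh at 100 µM and HA-Twi at 40 µM were also taken with taz, which the labels do not spell out, and with DMSO. Wild-type cells without a construct got copper too: 1000 µM for anti-Zld, 100 µM for anti-Grh and 40 µM for anti-Twi and for anti-HA. The factors were expressed in 1 cell line in which they are ectopic, and the labels do not say whether libraries came from separate cultures. The lists hold binding and no expression, so neither the cell type nor the level of a factor can be checked in them.

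The mitochondrial ribosome translates the few messages encoded by mitochondrial DNA, which make core subunits of the respiratory chain. Its RNAs are mitochondrial, but its proteins are encoded in the nucleus, made on cytoplasmic ribosomes and imported. Many have counterparts in bacterial ribosomes, and others occur only in mitochondria. Zld (Zelda) is a zinc-finger factor that opens chromatin in the early embryo, Grh (Grainy head) regulates epithelial genes, and Twi (Twist), of the basic helix-loop-helix family, specifies mesoderm.

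Each list comes from 2 libraries pooled. None separates them, so neither their spread nor a test between groups can be had. The spread between experiments is read from repeats, in which 1 construct, dose and antibody recur under another title. The lists held 88 to 20194 summits. Between 16.7% and 86.8% of the running peak numbers remain in a list, and a gene without a summit may have had a peak that was removed. Where the regions on both sides of a gene have consecutive numbers, no numbered peak was removed between them, and counts of such members are given where they matter.

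In the single-dose experiments the untagged factors had summits at most members, while HA-Twi had none at the same dose as Twi. Twi had a summit at 69 of 73 members (94.5%; all genes 58%) and Grh in the single-dose experiment at 67 (91.8%; all genes 54.3%). Zld in the single-dose experiment had one at 56 (76.7%; all genes 45.6%). HA-Twi at 40 µM had none at any of the 73, against 11.7% of all genes. Wild-type cells had a summit at 42 members with anti-Zld (57.5%; all genes 42.2%) and at 18 with anti-Grh (24.7%; all genes 17.2%). Anti-Twi gave 25 members there (34.2%; all genes 22%), and anti-HA 12 (16.4%; all genes 15.9%). Summits at 54 members (74.0%) were shared by the Zld, Grh and Twi single-dose lists, against 39.9% of all genes. A single member, mRpL38, had a summit in none of these, against 35.2% of all genes.

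**Figure D1:**
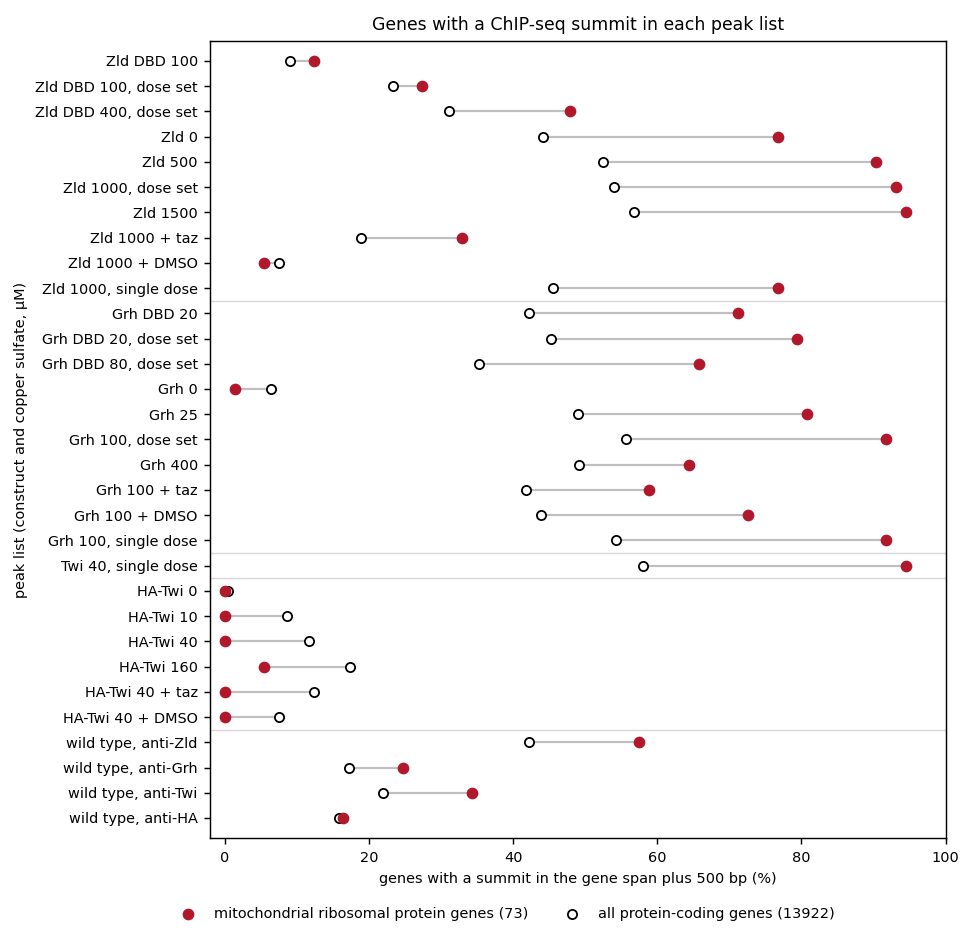
Share of genes with a summit in each of the 31 lists, for the 73 mitochondrial ribosomal protein genes (filled points) and all 13922 protein-coding genes (open points); each row is 1 list of 2 pooled libraries, named by construct and copper sulfate in µM, with wild type at the bottom. Members lie to the right of all genes in the Zld, Grh and Twi lists, except for Zld with DMSO and Grh at 0 µM, and to the left in the 6 HA-Twi lists. With summits within 500 bp of a gene end alone, the point of Zld with DMSO (5.48%) also lies to the right of all genes (2.55%).

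The members are short and lie close to other genes. Their median length is 909 bp, against 2163 bp over all genes, so the window of a typical member is smaller. Counting only summits within 500 bp of either gene end left all 8 counts of members above as they were. In a gene of up to 1000 bp, as most members are, every point of the window meets that rule. Their counts could therefore not change, and the rule bears mainly on the background. The background under that rule was 41.8% beside the 56 members of Zld, 50.6% beside the 67 of Grh, 53.7% beside the 69 of Twi and 4.9% beside the 0 of HA-Twi. In wild type it was 39.1% beside the 42 members of anti-Zld, 14.9% beside the 18 of anti-Grh, 18.1% beside the 25 of anti-Twi and 13.3% beside the 12 of anti-HA. For Zld with DMSO it was 2.55% and for HA-Twi at 160 µM 9.19%, each beside 4 members. Another protein-coding gene lay within 500 bp of 72 of 73 members (98.6%), against 80.4% of all genes, and 43 members (58.9%) overlapped another gene, against 41.4%. The part of these neighbours in the shares was not tested. Counting only summits with no nearer end of another gene, Zld had 31 members (42.5%; all genes 33.4%), Grh 40 (54.8%; all genes 41.1%), Twi 51 (69.9%; all genes 45.7%) and HA-Twi 0 (all genes 9.75%). In wild type the members were then no longer above the background with 3 of the 4 antibodies. Anti-Zld gave 23 members (31.5%; all genes 31.6%), anti-Grh 5 (6.85%; all genes 11.8%), anti-Twi 13 (17.8%; all genes 15.8%) and anti-HA 5 (6.85%; all genes 11.9%). That rule was chosen after the data were seen.

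Individual members had summits in 0 to 22 of the 31 lists, with a median of 15 and quartiles of 12 and 18. Over all genes the median was 10, with quartiles of 0 and 17. No member reached more than 22 lists, against 7.42% of all genes. Large subunit genes had a median of 16 lists (n = 47) and small subunit genes one of 14.5 (n = 26), with overlapping quartiles of 12 to 19 and 12 to 17.75. The letter in the symbol is not always the subunit, since the human counterparts of mRpS18A and mRpS30 sit in the large subunit. In the Grh single-dose list 43 of 47 large and 24 of 26 small subunit genes had a summit, and in the wild-type anti-Zld list 30 and 12 had one. By chromosome arm the medians ran from 12 lists on X (11 members) to 18 on 2R (12 members).

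**Figure D2:**
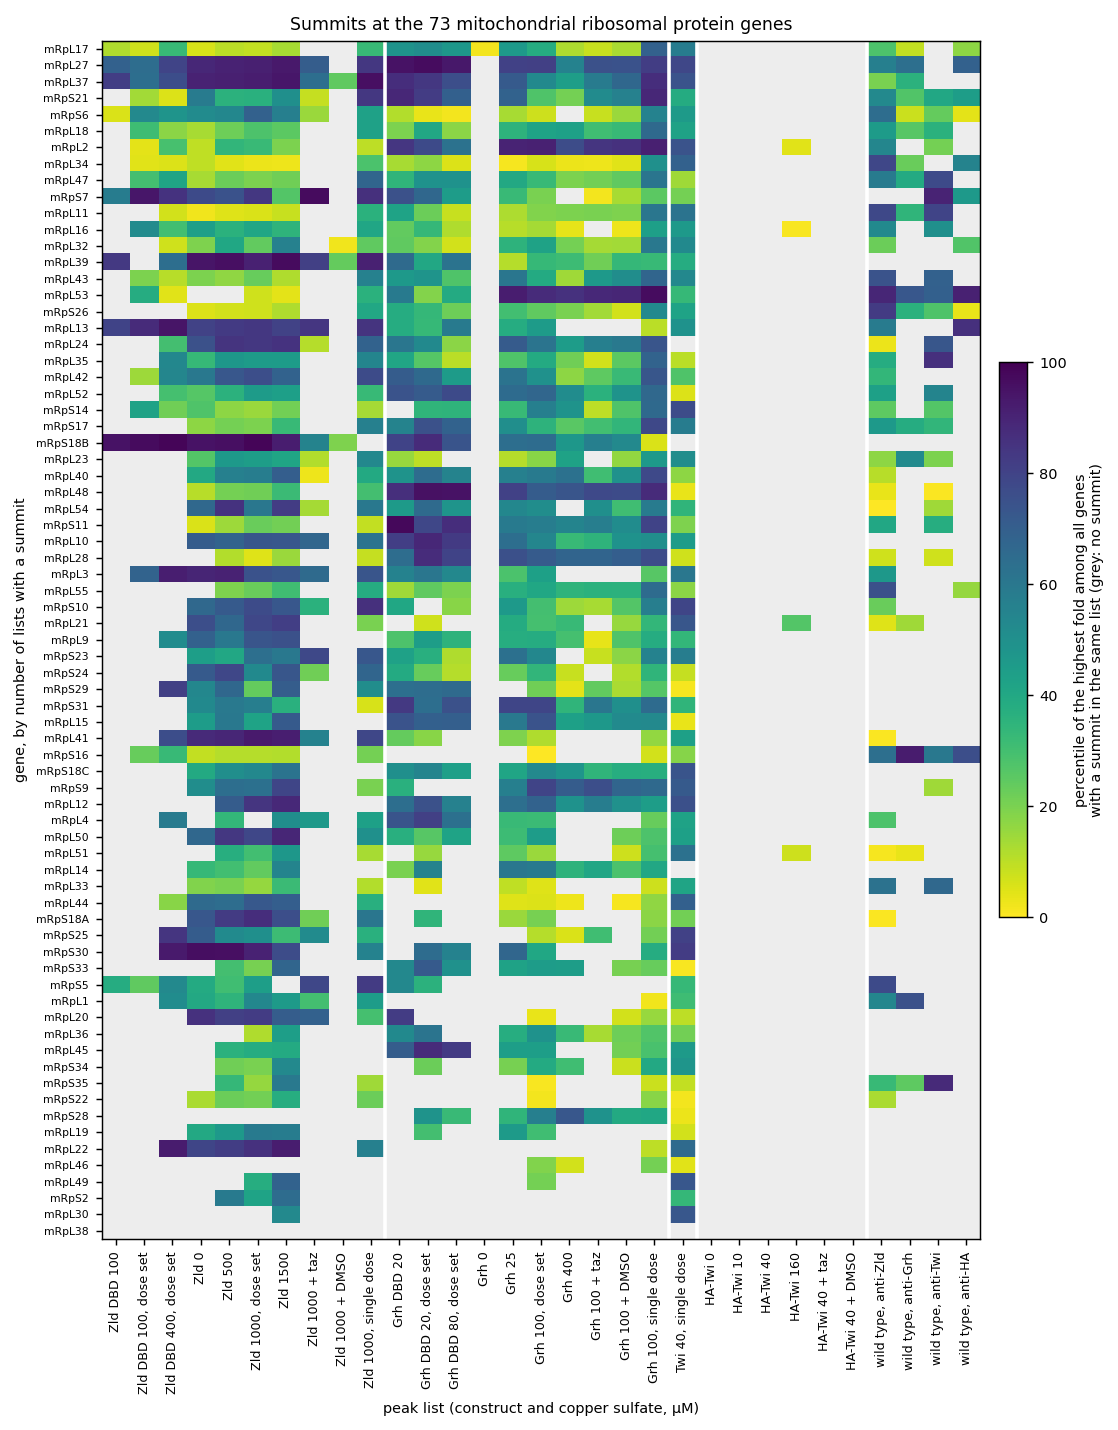
Summits at the 73 members (rows, by number of lists) in the 31 lists (columns, construct and copper sulfate in µM, wild type at the right); colour gives the percentile of the gene's highest fold among all genes with a summit in the same list, and grey means no summit. The HA-Twi columns are grey except for 4 cells at 160 µM, and mRpL38 at the bottom is grey throughout.

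Folds below are the authors' enrichment over local background at a summit; they rank genes within a list. Where values of 2 lists stand side by side they describe each list: the lists differ in length, so neither a fold nor a percentile shows a change between them. Members ranked near the middle of the genes with a summit: of the single-dose lists, that of Zld gave a median percentile of 43.1, that of Grh 44.4 and that of Twi 42.3. The median fold of the members called was 3.00 in the Zld list, against 3.13 over all genes called. In the Grh list it was 5.23, against 5.63, and in the Twi list 2.90, against 3.09. The wide share of members with a summit thus came with folds close to the middle of these 3 lists. In the repeats the median percentile was 44.6 in the dose series and 21.5 with DMSO for Zld. For Grh it was 38.9 and 28.1.

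The genes with summits in most lists were mRpL17, mRpL27, mRpL37, mRpS21 and mRpS6, each in 22, followed by mRpL18, mRpL2, mRpL34, mRpL47 and mRpS7 in 20. The bacterial counterparts of mRpL27 and mRpL2 lie at or near the peptidyl transferase centre, where peptide bonds are made. mRpL27 (gene 318825, 2L:4458595-4459638) had a fold of 4.11 in the Zld single-dose list, at percentile 83.8 of that list, against 4.28 and percentile 57.0 in wild-type cells with anti-Zld. In the Grh single-dose list its fold was 10.8 (percentile 81.8), against 4.11 (percentile 63.4) in wild-type cells with anti-Grh. The Grh list held 7559 genes and the wild-type anti-Grh list 2391, so the percentiles refer to lists of unequal length. It lies 231 bp from RpL27A, a cytoplasmic ribosomal protein gene, and in 17 of the 22 lists its best summit was nearer to the end of another gene. The same held in 20 of 22 lists for mRpL17 and mRpS21, and in all 20 for mRpL18, mRpL2 and mRpL47. For mRpL34 it was 18 of 20 and for mRpS7 19 of 20, but 10 of 22 for mRpL37 and 5 of 22 for mRpS6.

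mRpL37 (gene 41293, 3R:10782563-10784092) had a fold of 5.45 in the Zld single-dose list, at percentile 95.7, against 2.60 and percentile 20.0 in wild-type anti-Zld. In the repeats at 1000 µM it stood at percentile 92.1 in the dose series and 24.3 with DMSO. Across its 22 lists the best summit moved by no more than 95 bp. It encodes a large subunit protein of the kind found only in mitochondria. mRpL2 (gene 39253, 3L:11120847-11122041) ranked low with Zld and high with Grh. Its percentile was 10.1 in the Zld and 91.2 in the Grh single-dose list, with folds of 2.28 and 17.1. It had no summit in wild-type anti-Grh, and with anti-Zld wild-type cells had a fold of 4.12 at percentile 54.2. The same order held in the dose series, with percentiles of 32.3 for Zld at 1000 µM and 90.7 for Grh at 100 µM. All 20 best summits of mRpL2 lay nearer to the end of another gene.

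Several members had high Grh folds in the single-dose experiment and a lower percentile or no summit in wild-type anti-Grh. mRpS21, a small subunit protein whose bacterial relative joins late in assembly, had a fold of 14.6 at percentile 88.7 with Grh, against 2.90 at percentile 27.2 in wild-type anti-Grh. The repeats at the same dose did not give mRpS21 that place: its percentile was 27.4 in the dose series, with a fold of 3.08, and 56.1 with DMSO. mRpL48, mRpS11, mRpL40, mRpL28, mRpL24, mRpL42 and mRpL35 had no summit in wild-type anti-Grh, and with mRpL2 they had the highest Grh folds of the members that lacked one there and at 0 µM. Their Grh folds ran from 7.53 at mRpL35 to 13.9 at mRpL48. These 7 stood at percentiles of 68.0 to 87.7 in the single-dose list, 38.9 to 71.2 in the dose series at 100 µM and 25.4 to 77.2 with DMSO. mRpL28 stood at percentile 76.8 with Grh, 8.61 with Zld and 7.30 with Twi, and mRpL48 at 87.7, 30.0 and 3.34. mRpL42 stood at percentile 73.2 with Grh and 77.1 with Zld, but at 49.5 and 32.2 in the Grh repeats. mRpL28 and mRpL48 stood at 71.2 and 71.1 for Grh and at 4.77 and 21.7 for Zld in the dose series. The best summit was nearer to another gene's end in 20 of 22 lists at mRpS21 and 16 of 18 at mRpL24. At mRpL48, mRpS11, mRpL40, mRpL28, mRpL42 and mRpL35 this held in at most 2 lists.

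With Twi the highest folds were those of mRpS30 (4.63, percentile 82.1), mRpS25 (4.51, percentile 80.7) and mRpS10 (4.35, percentile 79.2), all without a summit in wild-type anti-Twi. mRpS30 and mRpS25 had no summit in any wild-type list. Both had lower percentiles with Grh, at percentiles of 38.3 and 21.2, and with Zld, at 55.5 and 36.6, in the single-dose experiments. In the Zld dose series mRpS30 stood at percentile 90.5 at 1000 µM, the repeat of the single dose. mRpS10, whose bacterial relative lies in the head of the small subunit, was also among the 3 highest Zld folds, at 4.24 and percentile 86.3, against 2.71 and percentile 23.0 in wild-type anti-Zld. It stood at percentile 77.0 in the dose series at 1000 µM. Its best summit was nearer to another gene's end in all 16 of its lists, against 2 of 12 at mRpS30 and 0 of 12 at mRpS25.

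Outside the wild-type lists, Grh and Twi had the most members. Grh had a summit at 49 members with none in wild-type anti-Grh (all genes 39%), and Twi at 45 with none in wild-type anti-Twi (all genes 37.1%). Zld had 14 such members (all genes 9.68%), and HA-Twi at 40 µM had 0 (all genes 5.62%). Read as a share of the genes called, members resembled all genes: 73.1% of the called members lay outside wild type for Grh, against 71.8% of all genes called. For Twi it was 65.2%, against 63.9%, and for Zld 25%, against 21.2%. Every member with a wild-type summit had one in the Zld and Grh lists, against 84.9% and 89.1% of all genes with a wild-type summit. For Twi it was 96% of members, against 95.3% of all genes, and the exception was mRpL24, a gene whose bacterial counterpart starts large subunit assembly. Its fold was 2.53 in wild-type anti-Twi (percentile 73.3), and it had no summit in the Twi list.

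Grh and Zld differed in what their uninduced lines held. All 49 members of the Grh list outside wild type (100%; all such genes 89.6%) also lacked a summit in Grh cells at 0 µM, where 1 member was called (all genes 6.38%). That member was mRpL17, with a fold of 1.63 at percentile 1.80 of its list. The Grh list at 0 µM kept 20.8% of its peak numbers and also lacked 17 of the 18 members called in wild-type anti-Grh. It thus held 5.56% of those members, against 13.2% of all genes called there. Regions on both sides had consecutive numbers at 2 of the 71 members that no region touched at 0 µM, so at most of them a removed peak cannot be told from none. None of the 14 members of the Zld list outside wild type was absent at 0 µM (0%; all such genes 25.2%), where 56 members were called (all genes 44.2%). Zld cells at 0 µM had summits at 20 members that wild-type anti-Zld cells did not show, among them mRpL39 and mRpS30. The other 36 of 56 (64.3%) had one there, against 75.6% of all genes called at 0 µM.

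mRpL39 (gene 39627, 3L:14997981-14999666), another protein found only in mitochondrial ribosomes, was high in most Zld lists and without a summit in wild type. It had a summit in all 7 full-length Zld lists and in 0 of the 4 wild-type lists. In the Zld dose series its fold was 3.81 at 0 µM, 4.42 at 500 µM, 4.32 at 1000 µM and 5.25 at 1500 µM, at percentiles of 94.5, 96.0, 91.0 and 97.2. In the Grh dose series it had no summit at 0 µM and folds of 2.34, 3.25 and 3.58 at 25, 100 and 400 µM, at percentiles of 11.3, 32.9 and 31.5. In the Zld single-dose list it stood at percentile 90.6, with taz at 81.2 and with DMSO at 23.5. In the Twi list its fold was 2.80, at percentile 38.2.

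mRpS18B (gene 35299, 2L:20096329-20097253), mRpS5 and mRpS28 were chosen after their values were seen, for patterns that part the factors. mRpS18B is 1 of several animal relatives of a single bacterial protein, S18. It had no summit in the wild-type, Twi and HA-Twi lists, and it led the members in all 3 Zld-DBD lists, at percentiles of 95.3, 97.2 and 98.5. In the Zld dose series its percentiles were 95.2, 95.7, 98.5 and 92.2 from 0 to 1500 µM, yet the Zld single-dose list had no summit there. It also had a summit in all 3 Grh-DBD lists and in 6 of 7 full-length Grh lists, at percentiles from 5.75 to 64.5 in the full-length lists. All its summits lay within 26 bp of the same end of the gene.

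mRpS5, a relative of a bacterial protein that guards decoding accuracy, had a summit in 5 of 7 full-length Zld lists and 0 of 7 full-length Grh lists. Grh-DBD at 20 µM had one in both experiments, with folds of 3.06 and 2.62 (percentiles 53.4 and 35.6). In wild-type anti-Zld cells its fold was 6.38, at percentile 77.6. mRpS28 had the opposite pattern, with a summit in 6 of 7 full-length Grh lists, 2 of 3 Grh-DBD lists and none of the Zld, Zld-DBD or wild-type lists. Its Grh folds were 2.96 at 25 µM, 4.19 at 100 µM and 6.95 at 400 µM, at percentiles of 34.5, 56.9 and 73.0. The Twi list also held it, at a fold of 1.89 and percentile 3.03. In 8 of its 9 lists the best summit was nearer to the end of another gene, against 0 of 12 at mRpS5.

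Single genes could also carry the factors at different places. mRpL53 (gene 3772367) lies within the span of AGO1, an RNA interference gene, and had a summit in all 4 wild-type lists. Those 4 wild-type summits, and the Zld, Zld-DBD and Twi summits, lay 43 to 78 bp beyond 1 end of mRpL53. All 9 Grh and Grh-DBD summits lay beyond the other end, 112 to 139 bp from it. Its Grh single-dose fold of 27.3 was the highest of the members in that list, at percentile 96.7, yet counting genes put it among those shared with wild type. The wild-type anti-Grh summit, with a fold of 4.76, lay 1650 bp away.

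mRpS9 (gene 40932, 3R:7889277-7902667) was named after its values were seen. At 13391 bp it is the longest member, and it overlaps 1 end of ArgRS-m, the gene of a mitochondrial aminoacyl-tRNA synthetase. It also overlaps the gene wtrw, and in 7 of its 14 lists the best summit was nearer to the end of another gene. Its 5 Zld summits, its Twi summit and its wild-type anti-Twi summit lay within 20 bp of 1 end. Its 6 Grh summits and 1 Grh-DBD summit lay inside the span, 3615 to 3699 bp from the other end. At mRpS7 (gene 34412, 2L:10386662-10387652) the Zld dose series and Zld-DBD summits lay 374 to 399 bp beyond 1 end. There the Grh summits, and those of the Zld single-dose and Zld with taz lists, lay beyond the other end.

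**Figure D3:**
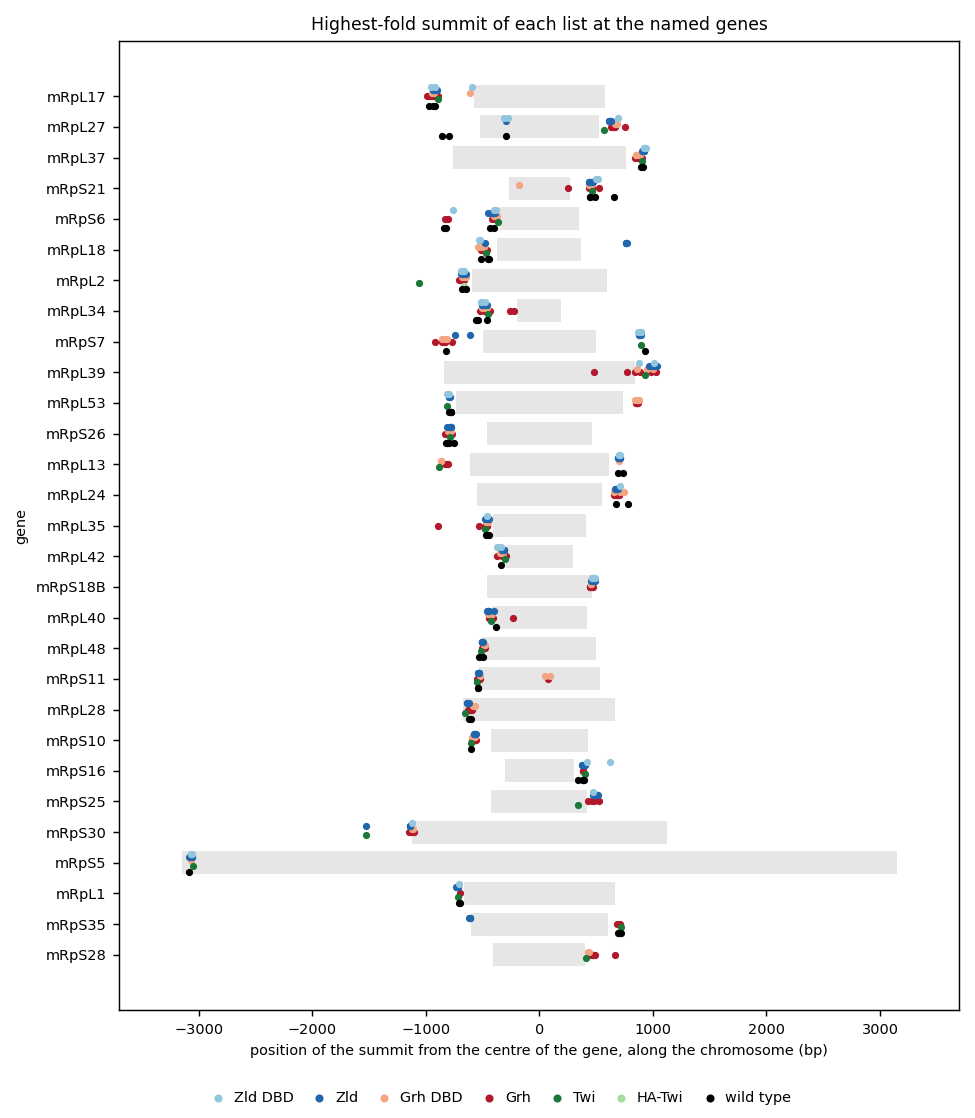
Position of the highest-fold summit of each list, in bp from the centre of the gene along the chromosome, for 29 members (rows; grey bars span the gene); colours give the construct, with wild type in black. In most rows the points gather at 1 end, while mRpL53, mRpS7, mRpL13 and mRpL27, for example, have groups at both ends.

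Such genes were the minority. Among the 64 members with a summit in at least 10 lists, 47 had every best summit at the same end, and the median range over lists was 176.5 bp. The best summits, 1072 in all, lay a median of 78 bp from the nearer end of the member, 906 outside the span and 166 inside. At 79.9% the distance was within 200 bp, and at 44.2% another gene's end was nearer still. By list that share ran from 28.8% for Grh-DBD at 20 µM (15 of 52) to 77.8% in wild-type anti-Grh (14 of 18). Grh at 0 µM, with 1 member, was left out of that range. It was 34.5% in the Grh-DBD repeat (20 of 58) and 46.3% for Grh in the single-dose experiment (31 of 67). The other wild-type lists gave 60% to 66.7%. The window and the short span of most members limit how far a summit can lie from an end. No value over all genes was set beside these positions, so they describe the members only. Where 2 factors had a summit at the same member, the median distance between them was 22 bp for Zld and Grh (55 members), 29 bp for Zld and Twi (55 members) and 31.5 bp for Grh and Twi (64 members). Among the members with a summit in at least 10 lists mRpL47 had the smallest range, 23 bp over 20 lists, nearer to a neighbour's end in all 20.

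The dose series differed between factors. Zld had summits at 56, 66, 68 and 69 members at 0, 500, 1000 and 1500 µM, where all genes gave 44.2%, 52.5%, 54% and 56.8%. From 0 to 500 µM, 10 members were gained and none lost, among them mRpL12, whose bacterial relative forms the stalk that recruits translation factors. Of the 66 members at 500 µM 84.8% had a summit at 0 µM, against 83.1% of all genes called at 500 µM. Later steps changed at most 4 members each. Of the 68 members at 1000 µM 95.6% had a summit at 500 µM, against 94.5% of all genes called at 1000 µM. Of the 69 at 1500 µM 97.1% had one at 1000 µM, against 91.5% of all genes called at 1500 µM. Grh had summits at 1, 59, 67 and 47 members at 0, 25, 100 and 400 µM, where all genes gave 6.38%, 49%, 55.6% and 49.2%. The 400 µM list lost 20 members relative to 100 µM and gained none: it held 70.1% of the members called at 100 µM, against 82.7% of all genes called there. The median percentile of the members called was 41.1 at 25 µM, 38.9 at 100 µM and 32.7 at 400 µM. Of the 22 members without a region at 400 µM, 20 had numbers missing around them, so peaks removed by the authors' filter cannot be told from peaks not called.

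**Figure D4:**
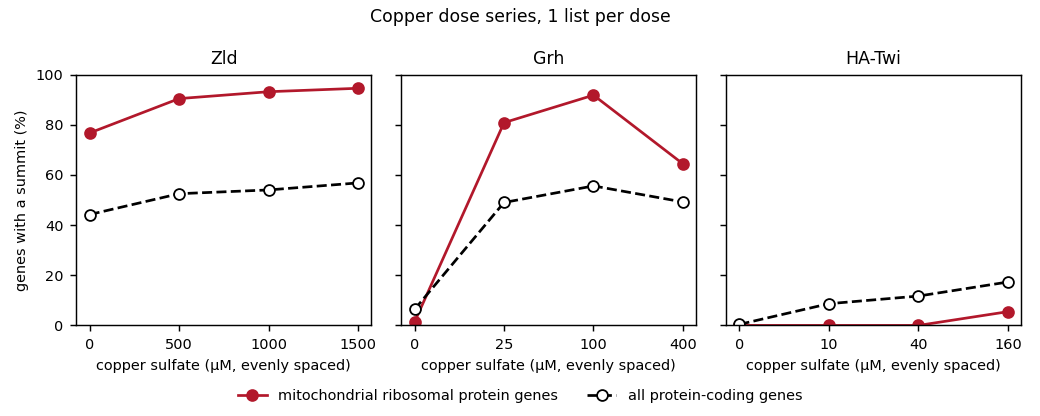
Share of genes with a summit against copper sulfate (µM, doses evenly spaced) for Zld, Grh and HA-Twi, for the 73 members (filled, solid line) and all protein-coding genes (open, dashed line); each point is 1 list. The Grh line is highest at 100 µM with 67 members, and the HA-Twi line stays at 0 until 4 members at 160 µM.

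HA-Twi stood apart from untagged Twi at these genes, as it did at related gene groups. It had no member at 0 µM (all genes 0.424%), 10 µM (8.66%) or 40 µM (11.7%), and 4 members at 160 µM (17.3%). With taz (all genes 12.3%) and with DMSO (all genes 7.57%) at 40 µM it had none either. The 4 members were mRpL51 (fold 1.88), mRpL2 (1.72), mRpL21 (2.45) and mRpL16 (1.53), at a median percentile of 5.98 in that list, and none had a summit in wild-type anti-HA. Over all genes, 97.7% of those with a summit for HA-Twi at 40 µM also had one for Twi, and 19.7% of the Twi genes had one for HA-Twi. Antibody and construct differ between these 2 lists, and their effects cannot be told apart.

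Whether HA-Twi peaks at members were absent or removed could be settled for some. At 40 µM, flanking regions had consecutive numbers at 15 of 73 members, and numbers were missing at 57. With taz this held for 28 members and at 160 µM for 21 of 68. In wild-type anti-HA the 12 members were mRpL27, mRpS7, mRpL13, mRpL53, mRpS16, mRpL34, mRpL17, mRpS6, mRpS26, mRpS21, mRpL55 and mRpL32. mRpL53 ranked highest there, with a fold of 3.15 at percentile 91.0, followed by mRpL13 with 2.96 at percentile 86.1. None of these 12 had a summit in any of the 6 HA-Twi lists, against 50.6% of all genes with a wild-type anti-HA summit.

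A group of 5 members, mRpL53, mRpS16, mRpS6, mRpS26 and mRpS21, had a summit in all 4 wild-type lists (6.85% of members; 6.20% of all genes). Another 29 had one in none of the 4 (39.7%; 54.5% of all genes). mRpS16, whose bacterial relative is needed to build the small subunit, stood higher in its wild-type lists than in the single-dose lists. Its fold was 2.81 in the Grh single-dose list, at percentile 6.80, against 8.56 in wild-type anti-Grh, at percentile 92.5. In the Zld single-dose list it was 2.57, at percentile 21.1, against 4.79 in wild-type anti-Zld, at percentile 63.3. In the Grh repeats it stood at percentile 0.362 in the dose series and had no summit with DMSO. Its best summit was nearer to another gene's end in 13 of its 14 lists.

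Several other members also stood at a higher percentile in wild type than in the single-dose list of the same antibody. With anti-Zld, mRpS26 had a fold of 2.94 in the Zld single-dose list, at percentile 40.2, against 7.26 and percentile 82.7 in wild-type cells. mRpL34 had 2.72 at percentile 28.2, against 6.50 and percentile 78.7. mRpL1, whose bacterial relative forms the stalk by which spent tRNA leaves, had a Grh fold of 2.34 at percentile 2.30, against 4.98 and percentile 75.3 in wild-type anti-Grh. With anti-Twi, mRpS7 stood at percentile 21.0 in the Twi list, against 90.0 in wild type, mRpS35 at 9.07, against 88.2, and mRpL35 at 10.3, against 86.1. These genes and mRpS16 were named for high wild-type folds, so their high values there are a description of that choice. The best summit was nearer to another gene's end in all 19 lists of mRpS26 and 18 of 20 of mRpL34. At mRpS35 this held in 6 of 10 lists, at mRpL35 in 2 of 18 and at mRpL1 in 0 of 11.

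The domain constructs had fewer members than the full-length factors in the single-dose experiments, at copper doses that differ. Zld-DBD had summits at 9 members at 100 µM (all genes 9.05%), and in the dose set at 20 at 100 µM (all genes 23.3%) and 35 at 400 µM (all genes 31.1%). Full-length Zld at 1000 µM had 56. Of the 9 members 8 (88.9%; all genes 91.3%) also had a summit for full-length Zld in the single-dose experiment, and of the 35 members 33 (94.3%; all genes 89.6%) had one. Grh-DBD had summits at 52 members at 20 µM (all genes 42.2%), and in the dose set at 58 at 20 µM (all genes 45.3%) and 48 at 80 µM (all genes 35.2%). Full-length Grh at 100 µM had 67, and 51 of the 52 Grh-DBD members (98.1%; all genes 92.1%) were among them. These overlaps were near those of all genes. Grh-DBD at 20 µM ranked mRpS11 at percentile 97.7 and mRpL48 at 86.5, while full-length Grh in the single-dose experiment ranked them at 80.0 and 87.7. The Grh-DBD dose set did not repeat that order. There mRpS11 stood at 78.6 and mRpL48 at 95.3 at 20 µM, and at 86.9 and 95.0 at 80 µM.

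With taz, Zld had summits at 24 members (all genes 18.9%), against 4 with DMSO (all genes 7.55%), and 3 members were in both, 12.5% of the members with taz (all genes 25.9%) and 75% of those with DMSO (all genes 64.6%). Grh had summits at 43 members with taz (all genes 41.8%), against 53 with DMSO (all genes 43.9%), and 42 were in both, 97.7% of the members with taz (all genes 94.5%) and 79.2% of those with DMSO (all genes 90.0%). In the Zld list with taz mRpS7 had the highest fold of the members, 5.99 at percentile 97.2, and had no summit with DMSO. mRpL37, mRpL39 and mRpS18B were the 3 members in both Zld lists, and mRpL32 had a summit with DMSO only. The kept share of peak numbers was higher with taz in both lines: 82.2%, against 36.7% with DMSO, for Zld, and 86.8%, against 68.9%, for Grh. The count of members rose with taz in the Zld line and fell in the Grh line. At 34 of 49 members without a region with taz, and at 4 of 69 with DMSO, the flanking Zld regions had consecutive numbers. The part of the removed peaks in these counts was not tested.

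Repeat experiments show how far a count can move with no change in construct, dose or antibody. Zld at 1000 µM had 56 members in the single-dose experiment, 68 in the dose series (all genes 54%) and 4 with DMSO, with 65.9%, 72.8% and 36.7% of peak numbers kept. The single-dose and dose-series lists shared 55 (98.2% and 80.9%; all genes 95.2% and 80.2%). The single-dose and DMSO lists shared 3 (5.36% and 75%; all genes 13.8% and 83.1%). Grh at 100 µM had 67, 67 and 53 in the same 3 experiments, and the first pair shared 65, or 97.0% of each (all genes 95.4% and 93.2%). Zld-DBD at 100 µM had 9 and 20, sharing 8 (88.9% and 40%; all genes 79.2% and 30.7%). Grh-DBD at 20 µM had 52 and 58, sharing 49 (94.2% and 84.5%; all genes 89.5% and 83.4%). DMSO is itself an added agent in 1 repeat of each factor, and those lists are also 1 arm of the comparison with taz. The repeats without either agent differed by 12 members for Zld and by 0 for Grh.

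Other mitochondrial gene groups, and the cytoplasmic ribosome, were taken as lists by symbol for comparison. Such lists also hold genes named after another gene, as COX7CL is after COX7C. Of these, COX7CL, COX5BL, ND-51L1, RpL22-like and Tim17b1 had a summit in 0 peak lists, but COX7AL2 in 23 and RpL24-like in 19. The part of such genes in the medians and shares below was not tested. Cytoplasmic ribosomal protein genes had a median of 16 lists (n = 92), respiratory chain genes 14 (n = 80), and mitochondrial gene expression factors 14 (n = 22). Mitochondrial aminoacyl-tRNA synthetases, which charge mitochondrial tRNAs, had a median of 13 (n = 15) and mitochondrial import genes, which bring proteins in, 11 (n = 15). In the Grh single-dose list 67 of 73 members (91.8%) had a summit. There 76 of 92 cytoplasmic ribosomal protein genes (82.6%), 19 of 22 expression factors (86.4%) and 52 of 80 respiratory chain genes (65%) had one. In wild-type anti-HA the members had 12 of 73 (16.4%), against 70 of 92 (76.1%) for cytoplasmic ribosomal protein genes and 14 of 80 (17.5%) for the respiratory chain.

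The gap to the cytoplasmic ribosome also appeared with anti-Zld in wild type, where members had 42 of 73 (57.5%) and cytoplasmic ribosomal protein genes 84 of 92 (91.3%). With full-length Grh and copper the order turned round in every list, and most widely with DMSO. There 53 of 73 members (72.6%) and 35 of 92 cytoplasmic ribosomal protein genes (38.0%) had a summit (all genes 43.9%). The shares were 58.9% and 37.0% with taz, but 80.8% and 79.3% at 25 µM and 64.4% and 62.0% at 400 µM. No test was made of these differences. The genes bonsai and tko encode mitochondrial small subunit proteins under names that the symbol rule misses. Both had summits in the Zld single-dose list and dose series and in the Twi and wild-type anti-Zld lists, and neither had one with Zld and taz or DMSO. In the Grh single-dose list bonsai had one.

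**Figure D5:**
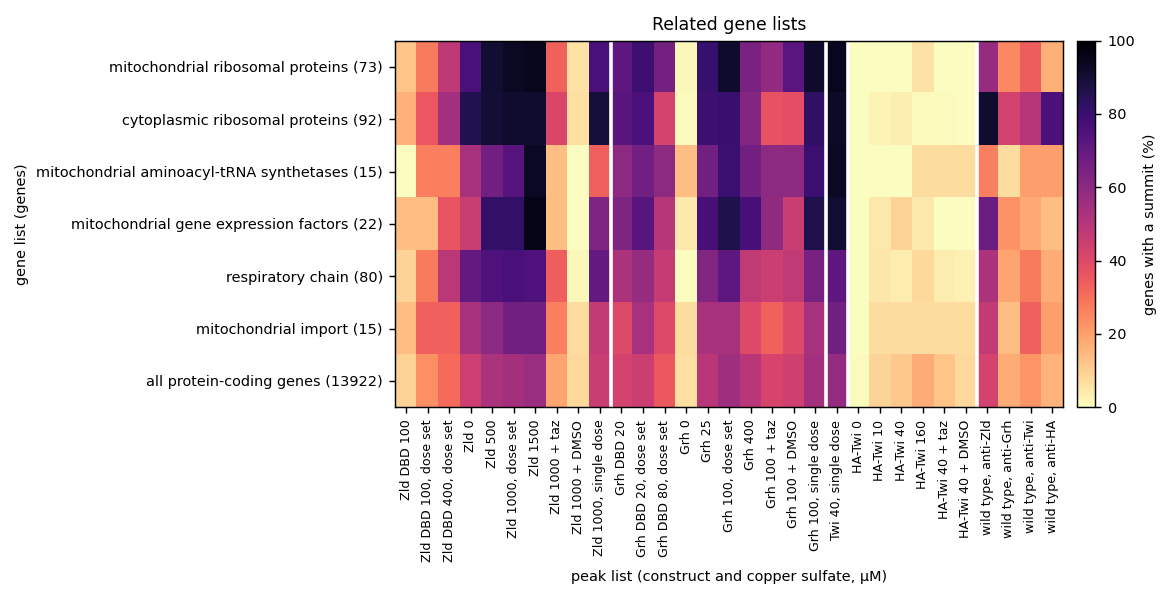
Share of genes with a summit in each of the 31 lists (columns, construct and copper sulfate in µM, wild type at the right) for the members, 5 related gene lists and all protein-coding genes (rows, with the number of genes). In the wild-type anti-HA column the cytoplasmic ribosomal proteins stand at 76.1% and the members at 16.4%.

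A few members had summits in hardly any list. mRpL38 had none in any list, mRpL30 had 2, and mRpL46, mRpL49 and mRpS2 had 4 each. mRpL30 had a fold of 3.10 for Zld at 1500 µM (percentile 52.8) and 3.94 for Twi (percentile 72.8). The Twi value lies in the upper part of its list and the Zld value near the middle of its own. At the border of the window, in the 8 lists described first, 1 member had its nearest summit up to 100 bp beyond it, mRpS31 in wild-type anti-Zld, at 596 bp with a fold of 4.28. Just inside, its Twi summit lay at 491 bp, with a fold of 2.72.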

How the data were processed

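ChIP-seq of S2 cells was analysed from 31 peak lists, each tied by the labels to 2 of 62 libraries; the other 14 libraries of the 76 were not analysed here. Per the submitters' processing notes, Bowtie2 2.4.4, MACS2 2.2, deepTools 3.5.1 and the build dm6 were used; their roles and settings, and the filter behind the lists, are not given in the sources used here. The lists hold the authors' deposited fold enrichment, a ratio of immunoprecipitation to local background, and deposited −log10 p-values and −log10 q-values per summit. Depth is not in the lists. Of 258174 summits, 2 lay beyond the end of their region and were used at the deposited position.

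Summits were assigned to genes of a RefSeq table on the assembly of dm6 with Python 3.11.15, numpy 2.4.6, pandas 2.3.3 and matplotlib 3.10.9; the scripts were tested on simulated peaks. A member's value in a list is its highest-fold summit within 500 bp of the span. The table holds no strand and no sequence was used, so planned motif counts were not made and distances are to either gene end. Named genes are the 8 in most lists, those in no list or 1, the 3 of highest fold in each of 8 lists, and up to 8 per factor outside wild type and 0 µM; others are marked. The members and lists were chosen with earlier results of these data known. Alternatives were other windows, region overlap, a −log10 q of at least 10, gene ends, repeats, other rules for sharing with wild type, and nearest gene end.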

Additional observations from a re-analysis of the deposited data

Results flagged for a closer look

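The number of members with a summit moved in opposite directions with taz in the Zld and Grh lines. The difference, taz minus DMSO, was 20 members in the Zld line and -10 in the Grh line. All genes gave 18.9% with taz and 7.55% with DMSO in the Zld line, and 41.8% and 43.9% in the Grh line. The difference between the lines was not tested, since each count comes from 1 list. The share of peak numbers kept was higher with taz than with DMSO in both lines, and its part in the result was not tested.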

How the results depend on the processing

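No paired analysis was possible because each list pools its 2 libraries, and for the same reason no library could be left out. Under the alternatives, 190 counts stayed within 1.5 times the reported count and 35 did not. Counting within 500 bp of either gene end, and both rules for sharing with wild type, kept every count within that range. For members of up to 1000 bp the gene-end rule is the same as the reported one, so it could not move them. The share of all genes under the same rule stands in brackets. A −log10 q of at least 10 left 10 members for Zld with taz (9.92%), 2 for Zld with DMSO (6.87%), 0 for Grh at 0 µM (5.39%), 25 for Grh with taz (28.1%) and 2 for HA-Twi at 160 µM (16.2%). A window of 250 bp left 0 members for Grh at 0 µM (5.94%) and 7 for wild-type anti-HA (14.3%). A window of 1000 bp gave 2 for Grh at 0 µM (7.23%), 2 for HA-Twi at 40 µM (13.2%), both outside wild type, 7 for HA-Twi at 160 µM (20.1%) and 1 for HA-Twi with DMSO (8.43%). Overlap of whole regions gave 2 for Grh at 0 µM (6.97%). The repeat with DMSO gave 4 for Zld at 1000 µM (7.55%), and the repeat of Zld-DBD at 100 µM gave 20 (23.3%). Counting only summits with no nearer end of another gene, a rule chosen after the data were seen, moved 20 of the 35. It gave 4 (6.71%), 9 (17.6%) and 22 (23.1%) for Zld-DBD at 100 µM, 100 µM in the dose set and 400 µM. For Zld at 0, 500, 1000 and 1500 µM it gave 33 (32.2%), 41 (39.5%), 41 (41%) and 44 (43.6%). It gave 2 for Zld with DMSO (6.07%), 31 for Zld in the single-dose experiment (33.4%), and 0 (5.06%), 35 (37.8%) and 42 (44.4%) for Grh at 0, 25 and 100 µM. For Grh it gave 26 with taz (32.4%), 35 with DMSO (34.1%) and 40 in the single-dose experiment (41.1%), and for HA-Twi at 160 µM 1 (14.2%). For wild type it gave 23 (31.6%), 5 (11.8%), 13 (15.8%) and 5 (11.9%) with anti-Zld, anti-Grh, anti-Twi and anti-HA. Under it the members, above all genes as reported, were at or below them for Zld-DBD at 100 µM in both experiments (5.48% and 12.3% of members) and for wild-type anti-Zld (31.5%), anti-Grh (6.85%) and anti-HA (6.85%). Wild-type anti-HA was below all genes also with each window, region overlap and the −log10 q limit, and above them with gene ends. The cause was not tested beyond these rules' own construction, which removes or adds summits. Depth is unknown here and limits what a missing summit means.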
